A study of Pimephales promelas with 15 samples.

Results

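A set of 200 array probes was taken whose signal stood high in the same pair of livers, the second stormwater fish (Stormwater 2) and the fourth streamwater fish (Streamwater 4), relative to the other 13 livers of the study. The array carries 15208 probes that are no controls, and 11640 of them were well above background on at least 3 of 15 arrays. For each of these the level was the log2 signal minus the array's 75th percentile, so that 0 is the 75th percentile of that array. The deviation of a probe in a liver was its level there minus its own median over the 15 livers. After the 200 probes of highest mean level in the controls had been left out, 11440 probes were ranked by the lower of their deviations in Stormwater 2 and Streamwater 4, and the 200 highest are the members. The levels in those 2 livers therefore chose the members, and they are given as a description with no test.

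The livers came from adult male fathead minnows (Pimephales promelas), a North American minnow that is a standard test species for water quality. Fish stayed unfed for 48 hours in lake water (stormwater, 4 livers), in water taken downstream of a treatment plant (streamwater, 4 livers), in treatment plant effluent used for irrigation (wastewater, 4 livers), or in carbon-filtered, dechlorinated tap water (control, 3 livers). RNA of 1 fish was put on each one-colour (Cy3) array, and groups and replicate numbers come from the sample titles. Each water had 4 aquaria, in each of which 4 males shared the water, and the labels do not tie a fish to its aquarium. The p-values set differences between waters against the spread between these fish. Spread between aquaria cannot be separated from it.

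The liver makes most plasma proteins, stores and exports lipid, forms bile and metabolises foreign compounds. In egg-laying fish it also makes the yolk precursor vitellogenin under oestrogen control, which is why male fish livers are widely used to look for oestrogenic water. A piece of liver holds hepatocytes together with bile duct, vessel, blood and immune cells, and an array reads the RNA of all of them at once.

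None of these functions could be assigned to the members. Their source sequences are named by contig numbers for 147 and by FJU_SB contig numbers for 14 of the 200, and by GenBank sequence numbers for 39, and 0 of the 15208 probes matched the reference gene table by name. Lists of oestrogen response, xenobiotic response, acute phase and other genes, and markers of hepatocytes and other cell types, could thus not be looked up, and the labelled tissue was not checked against its markers here. Members are called by probe identifier. The make-up by name type was near that of all probes that passed the filter for contig numbers (73.5% of members against 77.3% of all) and sequence numbers (19.5% against 18.1%). FJU_SB numbers were more frequent among members (7% against 4.26%). Members also lay across the array, with 46, 60, 46 and 48 in 4 equal bands of its rows. These are 23%, 30%, 23% and 24% of members, against 22.4%, 24.0%, 26.8% and 26.8% of all probes. Among the first 41 of its 82 columns lay 56.5% of members, against 49.7% of all probes.

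Both livers carried the members at several times their usual level. The median deviation over the 200 members was 2.75 on the log2 scale in Stormwater 2 (lowest 2.25, highest 6.57), which is 6.74-fold. In Streamwater 4 the median deviation was 2.80 (lowest 2.25, highest 6.97), or 6.98-fold. The lower deviation was over 8-fold for 42 members and over 16-fold for 8. In 15 of these 42, and 2 of the 8, fewer than 8 of 15 livers were well above background, so the median they are set against is near the detection limit and the fold is not exact. All 200 members were well above background in both livers, and none was saturated on any array. The cutoff fell in a continuous run of values: the last member, UF_Ppr_AF_115294, had a lower deviation of 2.2492, and the first probe outside, UF_Ppr_AF_109976, had 2.2462. In bulk tissue a change in the number of cells of a type and a change in RNA per cell cannot be told apart.

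The size of the deviation was similar in both livers for most members. Across the members the deviations in Stormwater 2 and Streamwater 4 correlated at r = 0.50, over 200 points that share their 15 arrays and their median. Stormwater 2 exceeded Streamwater 4 by over 2-fold for 13 members (6.50%, against 12.2% of all probes), and Streamwater 4 exceeded Stormwater 2 by over 2-fold for 15 (7.50%, against 7.76% of all). For 189 of 200 members both livers lay above all 13 others (background 14.6% of all probes). Both lay over 2-fold above all 13 others for 134 members (background 2.29%) and over 4-fold for 21 (background 0.180%). The rule ranks on these values, so the correlation and the shares describe the selection.

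The 5 members of highest rank differed in how they behaved in the remaining livers. UF_Ppr_AF_108611, the first, had levels of 1.89, 3.70, 0.72 and -2.56 in Stormwater 1 to 4 and -2.08, -2.15, -0.37 and 4.89 in Streamwater 1 to 4. Its levels were 1.00, -2.42, -5.41 and -5.22 in Wastewater 1 to 4 and 2.23, -2.39 and -3.38 in Control 1 to 3. This probe varied widely without the 2 livers as well: Control 1 and Stormwater 1 were also far above its median, and Wastewater 3 and 4 were not above background.

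UF_Ppr_AF_102221, the second, had -3.70, 0.76, -4.11 and -5.06 in Stormwater 1 to 4 and -5.43, -4.64, -5.42 and 1.44 in Streamwater 1 to 4. In wastewater it had -5.81, -5.77, -4.69 and -5.42, and in controls -4.08, -1.89 and -4.27. Besides the 2 livers it was well above background only in Stormwater 1, Stormwater 3 and Control 2, and its 2 high levels stood 2.65 or more above every other liver.

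UF_Ppr_AF_118647, at rank 3, had -1.28, 5.17, -1.76 and 0.21 in Stormwater 1 to 4, -3.63, -0.59, -2.68 and 4.71 in Streamwater 1 to 4 and -2.56, 0.14, -0.60 and -5.48 in Wastewater 1 to 4, against 0.15, 2.51 and -1.57 in controls. UF_Ppr_AF_107527, at rank 4, had -4.32, -1.29, -6.69 and -4.58 in stormwater, -5.73, -4.87, -5.95 and -0.79 in streamwater and -5.76, -6.05, -6.12 and -5.70 in wastewater, against -6.13, -3.77 and -5.01 in controls. UF_Ppr_AF_118082, at rank 5, had -1.59, 1.04, -3.60 and -2.78 in stormwater, -5.92, -3.53, -5.74 and 1.24 in streamwater and -6.24, -2.04, -2.83 and -5.92 in wastewater, against -3.25, -1.19 and -3.86 in controls. In each of the members ranked 2 to 5, Control 2 was the highest of the 13 remaining livers, below both Stormwater 2 and Streamwater 4. UF_Ppr_AF_107527 was above background in Control 2 and in no other of those 13 livers.

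Members were found among both dim and bright probes, but more often among the dimmest. Their mean level in the 3 controls ran between -6.23 and 4.97 with a median of -1.89. When the ranked probes were cut into 4 equal classes by control level, the dimmest class held 76 members and the others 35, 48 and 41. In the 13 remaining livers, 27 members were well above background in 1 or 2, 83 in 3 to 12 and 90 in all 13. Over all probes that passed the filter these classes held 3.02%, 33.0% and 64.0%, so members were more often near the detection limit (13.5%, 41.5% and 45%). The filter itself asks for 3 arrays, so 0 members could be detected in the 2 livers alone. A member, detected in both ranked livers, needed 1 further array to pass, and a probe detected in neither needed 3. The low detection of members in the remaining livers is therefore partly set by the rule. All 3 controls showed 133 members (66.5%, against 82.8% of all probes), and no control showed 18.

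The brightest members were measured far from any limit in every liver. UF_Ppr_AF_104036 had 3.93, 6.93, 4.76 and 4.54 in stormwater, 4.44, 5.06, 3.04 and 7.02 in streamwater and 3.80, 4.04, 4.81 and 2.96 in wastewater, against 3.84, 5.48 and 5.58 in controls. UF_Ppr_AF_112628 had 2.57, 5.66, 3.96 and 3.22 in stormwater, 3.19, 4.27, 1.55 and 5.52 in streamwater and 2.60, 2.67, 3.07 and 1.79 in wastewater, against 2.50, 3.63 and 3.23 in controls. UF_Ppr_AF_118398 had 3.35, 5.95, 2.99 and 2.90 in stormwater, 2.56, 3.85, 1.51 and 5.29 in streamwater and 2.81, 3.92, 3.05 and 1.87 in wastewater, against 2.57, 3.56 and 2.94 in controls. In all 3 the lower of the 2 livers stood 1.25 to 1.37 above the highest remaining liver, and Streamwater 3 and Wastewater 4 held the lowest 2 of the 15 levels.

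A few members were higher in some other liver than in at least 1 of the 2 livers. UF_Ppr_AF_100947 reached -0.06 in Wastewater 3, above its -0.77 in Stormwater 2 and -1.67 in Streamwater 4, and lay between -7.08 and -3.20 in the remaining 12 livers. UF_Ppr_AF_107019 had 1.16 in Stormwater 2 and -1.45 in Streamwater 4, but also -1.07 in Wastewater 1 and -0.21 in Control 2. UF_Ppr_AF_113422 had its highest level, 0.26, in Stormwater 4, against -1.71 in Stormwater 2 and -1.96 in Streamwater 4. These 3 carry the highest deviations found among members in any remaining liver, and each is an exception to the ordering seen in 189 members.

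Some members were high in certain fish and very low in others of the same water. Over the 13 remaining livers the range of a member's level had a median of 3.24 (lowest 1.33, highest 11.8), against 1.93 over all probes that passed the filter, and it exceeded 8 on the log2 scale for 4 members (2.00%, against 0.515% of all). These 4 were chosen after their values had been seen. UF_Ppr_AF_109272 had -6.44, 5.97, -1.55 and 4.63 in stormwater, 3.71, 5.18, 2.91 and 6.02 in streamwater and 3.63, 2.68, -1.30 and -2.65 in wastewater, against -6.07, 4.20 and -6.65 in controls. UF_Ppr_AF_103241 had -2.78, 6.57, -1.20 and 4.54 in stormwater, 4.15, 5.50, 3.73 and 6.19 in streamwater and 5.0015, 3.46, -0.64 and -1.56 in wastewater, against -2.49, 4.32 and -3.82 in controls. Both probes were low in the same 6 livers, Stormwater 1 and 3, Wastewater 3 and 4 and Control 1 and 3, and high in the other 9.

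The remaining pair of wide range was low in different livers. UF_Ppr_AF_109688 had -0.19, 4.64, -6.56 and 1.87 in stormwater, -0.83, 2.91, -1.84 and 3.99 in streamwater and 0.73, 0.60, 1.25 and 0.27 in wastewater, against 1.12, 2.07 and 1.81 in controls, with Stormwater 3 alone not above background. UF_Ppr_AF_113872 had 3.86, 5.71, -3.43 and 4.82 in stormwater, -4.43, -3.39, 3.33 and 6.32 in streamwater and -3.90, 4.81, 0.37 and 3.29 in wastewater, against -2.48, -3.90 and 4.54 in controls. In each of the 4 probes the highest of the 15 levels is that of Stormwater 2 or Streamwater 4, as it is for most members.

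In some of the livers that the rule did not rank, the members tended to deviate in the same direction. Their median deviation was 0.00, 0.32 and 0.29 in Stormwater 1, 3 and 4, and -0.11, 0.91 and -1.34 in Streamwater 1 to 3. It was -0.44, -0.29, -0.21 and -1.19 in Wastewater 1 to 4, against -0.33, 0.54 and 0.00 in Control 1 to 3. The same median over all probes lay between -0.09 and 0.06 in all 15 livers. Streamwater 2 was thus the highest of the 13 and Streamwater 3 and Wastewater 4 the lowest, and these lowest livers came from different waters. By water the mean of these medians was 0.20 ± 0.18 in stormwater (SD, n = 3), -0.18 ± 1.12 in streamwater (SD, n = 3) and -0.53 ± 0.45 in wastewater (SD, n = 4), against 0.07 ± 0.44 in controls (SD, n = 3).

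Counted one by one, 88 members lay over 2-fold above their own median in Streamwater 2 (44.0%, background 6.75% of all probes) and 59 in Control 2 (29.5%, background 9.18%). In Stormwater 1, 3 and 4 the counts above were 25 (background 5.36%), 46 (background 5.76%) and 26 (background 4.36%). In these 3 livers the counts over 2-fold below were 27 (background 16.1%), 16 (background 11.3%) and 6 (background 2.18%), so Stormwater 1 had about as many below as above. Over 2-fold below their median were 121 members in Streamwater 3 (60.5%, background 10.4%) and 116 in Wastewater 4 (58.0%, background 9.65%). Control 2 lay above the median of 150 members (75.0%, against 49.97% of all probes). A total of 142 members (71.0%, against 25.1% of all probes) lay above their median in Streamwater 2 and below it in both Streamwater 3 and Wastewater 4.

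Streamwater 3 and Wastewater 4 also had the lowest 75th percentile of signal among the 15 arrays, at 1504 and 1393 intensity units, and low shares of detected probes, at 60.2% and 58.5%. Streamwater 2 had a 75th percentile of 2591, Stormwater 2 of 3981, the highest of the 15, and Streamwater 4 of 2158. Stormwater 1 had 2697 and Wastewater 1 had 2447, with median deviations of the members of 0.00 and -0.44. The share detected was 77.1% in Stormwater 2, 64.5% in Streamwater 4 and 75.2% in Control 2. In Control 3 it was 73.4%, with a median deviation of the members of 0.00. The part of array brightness in the members' pattern was not tested. With quantile normalization the members' median deviation was 3.00 in Stormwater 2 and 3.12 in Streamwater 4, and with a normexp background 2.38 and 2.42. The 90 members that were well above background on all 15 arrays had median deviations of 0.89 in Streamwater 2, -1.43 in Streamwater 3, -1.35 in Wastewater 4 and 0.40 in Control 2, against 0.91, -1.34, -1.19 and 0.54 for all 200.

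Among the 13 remaining livers the highest level of a member fell in Streamwater 2 for 83 members (41.5%, against 9.30% of all probes), in Control 2 for 58 (29.0%, against 11.3%) and in Stormwater 3 for 20 (10%, against 6.86%). The lowest fell in Streamwater 3 for 62 (31.0%, against 7.33%) and in Wastewater 4 for 48 (24.0%, against 6.05%). The 83 members with their highest remaining level in Streamwater 2 had a median deviation of 1.37 there and 0.18 in Control 2. The 58 with theirs in Control 2 had 0.32 in Streamwater 2 and 1.42 in Control 2. Both of these subsets were low in Streamwater 3 (-1.45 and -1.04) and in Wastewater 4 (-1.40 and -1.20), and both were drawn after the values had been seen. Over the 200 members the mean deviation of the 2 livers and the deviation in Streamwater 2 correlated at r = -0.22. These points share all arrays and the median, and the rule selected them on the values of the 2 livers. The correlation therefore describes the selected list and nothing beyond it.

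Source sequences with more than 1 probe allowed a check of single members against a second probe. A second probe of the same sequence existed for 13 members. In each such pair 1 of the 2 sequence names carries the suffix _ms. Whether probes with and without it read alike was not tested. In 1 case both were members: UF_Ppr_AF_102650 deviated by 4.57 in Stormwater 2 and 4.12 in Streamwater 4, and its partner UF_Ppr_AM_120030 by 2.88 and 3.19. Of the 11 partners that are no members, 7 passed the detection filter, 5 of these lay above their own median in both livers and 2 lay over 2-fold above it in both. The partner of UF_Ppr_AF_103417 (3.05 in Stormwater 2 and 2.59 in Streamwater 4), UF_Ppr_AM_119442, deviated by 2.48 and 2.18 and missed the cutoff narrowly.

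For 2 members the second probe passed the detection filter but lay below its own median in both livers. UF_Ppr_AF_102221, the second member by rank, deviated by 5.39 in Stormwater 2 and 6.08 in Streamwater 4, while its partner UF_Ppr_AM_120477, well above background on all 15 arrays, deviated by -0.30 and -0.19. UF_Ppr_AM_120594 deviated by 2.87 and 3.22 and its partner UF_Ppr_AF_100551 by -0.89 and -0.89. Probes of 1 sequence can read different transcripts, and over all 297 such pairs of the array that passed the filter the absolute difference between the probes in mean deviation over the 2 livers had a median of 0.72. The values of these 2 members thus rest on 1 of 2 probes that disagree, of which 1 is of the _ms kind.

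The 13 livers that were not ranked were then used to ask whether the members differed between a water and control in fish outside the ranking. These livers still took part in the choice. They entered each probe's median and the detection filter, and the controls set which bright probes were left out. With the median taken over these 13 livers alone the rule recovered 173 of the 200 members, and with the bright probes kept it recovered 200. The comparisons are therefore not independent of the choice of members. Levels were fitted with limma over all 11640 probes, with 1 mean per water, 3 stormwater, 3 streamwater and 4 wastewater livers against the same 3 controls, and p-values were adjusted by Benjamini-Hochberg over all probes. In each comparison 0 members and 0 of 11640 probes (background 0%) passed an adjusted p of 0.05. At an unadjusted p under 0.05 there were 10 members for stormwater (6 higher, background 1.85% of all probes, and 4 lower, background 5.59%; in both directions 7.44%), 9 for streamwater (1 higher, background 1.06%, and 8 lower, background 3.20%; in both directions 4.26%) and 18 for wastewater (1 higher, background 1.43%, and 17 lower, background 3.10%; in both directions 4.54%). Over both directions, the counts for stormwater and streamwater among 200 members are near or below the background. The 3 comparisons share the control livers.

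Among the 3 comparisons the members' median log2 fold change was lowest after wastewater. It was -0.61, against -0.12 over all probes tested, and 178 of 200 were lower by any amount (89.0%, background 62.2%). The 200 members share the same livers and are no replicates. By liver, Control 1 (median deviation -0.33) lay within the range of Wastewater 1 to 3 (-0.44, -0.29 and -0.21), and Wastewater 4 (-1.19) lay below all controls. For streamwater the median log2 fold change was -0.30, against -0.03 over all probes, with 137 of 200 lower (68.5%, background 52.7%). For stormwater it was 0.13, against -0.19, with 83 lower (41.5%, background 63.5%) and 117 higher. No test was made of these medians, since the members were chosen on values of the same probes in fish of 2 of these waters.

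Arrays lay on 2 slides, and slide 1 held 1 control and slide 2 the other 2, so each comparison was also made within a slide. With the ranked livers left out, stormwater and control each had 1 liver on slide 1, and streamwater had 1 on slide 2. The medians below are therefore given with no test, and the p-values of single probes within slides carry the same limit. Stormwater 2 lay on slide 1 and Streamwater 4 on slide 2. The members' median log2 fold change after wastewater was -0.05 within slide 1 (104 of 200 lower, background 57.5%) and -1.03 within slide 2 (184 of 200 lower, background 59.8%). For streamwater it was 0.78 within slide 1 (44 lower, background 51.7%) and -1.59 within slide 2 (185 lower, background 57.5%), so that the direction turned between slides. Streamwater 2 lies on slide 1 and Streamwater 3 on slide 2. For stormwater it was 0.33 within slide 1 and 0.07 within slide 2. The streamwater median was 0.29 without Streamwater replicate 3, 0.071 with a normexp background (all probes 0.28) and 0.085 with spike-in scaling (all probes 0.36), and without Control replicate 1 the stormwater median was -0.09. The wastewater median was -0.83 to -0.43 in fits that left out 1 liver and -0.37 with spike-in scaling (all probes 0.12). With a normexp background it was -0.10 (all probes 0.16), and 112 of 200 members were lower, against 3738 of all 11640 probes.

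The member of lowest p was the same for wastewater and streamwater. UF_Ppr_AF_110291 had -5.97, -6.07, -6.18 and -5.73 in Wastewater 1 to 4 and -5.77, -5.07 and -5.33 in Streamwater 1 to 3, against -3.31, -2.75 and -3.60 in the controls. None of those 7 exposed livers showed it well above background and all 3 controls did, and these livers do not overlap with the controls. Streamwater 4, left out because the rule ranked by it, had -1.43, well above background and above all 3 controls. After wastewater UF_Ppr_AF_110291 was at least 1.69-fold lower (log2 fold change -2.77, SE 0.43, adjusted p = 0.205 in limma). In Streamwater 1 to 3 it was at least 1.61-fold lower (-2.17, SE 0.46, adjusted p = 1 in limma). With all 15 arrays, which include the livers that chose the members, its log2 fold change after streamwater was -1.18. With a normexp background the log2 fold change was -0.38 after wastewater and 0.012 after streamwater, where the direction turned. Both fall short of the folds of 1.69 and 1.61, which are thus lower bounds for the main processing only. In the fit without Stormwater replicate 3, which estimates the spread from the remaining livers, its adjusted p for wastewater was 0.0089, the only probe of the array to pass there; over the alternatives it ran between 0.0089 and 1. Where 1 group was below background throughout and the other well above it throughout, a fold is given as a lower bound. That bound takes the dimmest signals called well above background on each array as the detection limit, and it holds for the main processing only.

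UF_Ppr_AF_110291 had -4.03, -5.84 and -3.92 in Stormwater 1, 3 and 4, against the same controls, and was well above background in 2 of these 3 livers. UF_Ppr_AF_106509 had -5.89, -6.84 and -6.09 in the same stormwater livers, against -4.64, -3.61 and -5.38 in controls, and was the member of lowest p in the downward direction for stormwater. Its log2 fold change was -1.73 (SE 0.41, adjusted p = 0.508 in limma). Control 2 was the only 1 of these 6 livers in which it was well above background. The difference thus rests on signals near the detection limit, and no bound on the fold can be given. It passed the detection filter through Control 2 and the ranked livers, and its log2 fold change was -1.05 with quantile normalization and -0.71 with a normexp background.

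Upward, UF_Ppr_AF_110422 had the lowest p for stormwater, with levels of -4.15, -4.32 and -3.88 in Stormwater 1, 3 and 4, against -5.79, -6.25 and -5.26 in controls. Its log2 fold change was 1.65 (SE 0.37, adjusted p = 0.508 in limma). It was well above background in 1 of the 3 stormwater livers and in no control, so no bound on the fold can be given. UF_Ppr_AF_115294, the last member inside the cutoff, had -3.78, -3.92 and -3.89 in the same livers, against -6.04, -5.53 and -5.75 in controls. All 3 of those stormwater livers and no control were well above background, and it was at least 1.54-fold higher (log2 fold change 1.91, SE 0.45, adjusted p = 0.508 in limma). Streamwater 2 had -3.75, above these 3 stormwater livers, but was not called well above background. Without Streamwater replicate 2 the adjusted p of UF_Ppr_AF_115294 was 0.0423 in limma, 1 of 2 probes of the array to pass there. Its log2 fold change stayed at 1.91, and its SE was 0.24 in that fit. With a normexp background the log2 fold change of UF_Ppr_AF_115294 was 0.60, just short of 1.54-fold, so that bound too holds for the main processing only. Over the alternatives its adjusted p ran between 0.0423 and 0.98. Of the 13 remaining livers those 3 are the only ones well above background, so UF_Ppr_AF_115294 passed the detection filter through the ranked livers and the group where it is high, which favours such a difference. UF_Ppr_AF_110422 likewise passed through the ranked livers and Stormwater 4, and its log2 fold change was 0.29 with a normexp background. The second probe of the source sequence of UF_Ppr_AF_115294, UF_Ppr_AM_119157, was well above background on only 1 array and did not pass the detection filter. Detection of this sequence in all 3 stormwater livers thus rests on 1 of 2 probes, and the other did not show it. Whether so dim a probe could show such a difference was not tested.

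UF_Ppr_AF_115038 was the only member higher after streamwater at an unadjusted p under 0.05, with -2.33, -2.08 and -3.55 in Streamwater 1 to 3, against -4.10, -3.14 and -3.70 in controls. It was well above background in all of these livers but Control 1, the lowest of them, so the fold rests partly on a signal near the detection limit. The groups overlap, and the log2 fold change was 0.99 (SE 0.43, adjusted p = 1 in limma). UF_Ppr_AF_116905 was its counterpart for wastewater, with -2.20, -1.64, -2.13 and -2.17 in Wastewater 1 to 4, against -3.07, -3.46 and -3.53 in controls. It was well above background in all 7 of these livers, all 4 exposed livers lay above all 3 controls, and the log2 fold change was 1.32 (SE 0.50, adjusted p = 1 in limma).

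Detection of the members differed between waters, as it did for all probes that passed the filter. Of the 200 members, 15 (7.50%, against 3.12% of all probes) were detected in none of the 3 remaining stormwater livers, 37 (18.5%, against 8.51%) in none of the 3 remaining streamwater livers, 54 (27.0%, against 8.45%) in none of the 4 wastewater livers and 18 (9%, against 1.35%) in none of the 3 controls. In all livers of the group, 139 (69.5%, against 76.2%) were detected in stormwater, 98 (49.0%, against 72.1%) in streamwater and 95 (47.5%, against 66.9%) in wastewater, against 133 (66.5%, against 82.8%) in controls. Groups of 4 livers have more chances to detect a member and to miss one than groups of 3. Detection in both ranked livers left a member needing only 1 further array to pass the filter. The excess of members over all probes in the shares detected in none is therefore partly set by the rule.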

How the data were processed

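Members, gene lists and tests were chosen with earlier results of these data known. The scanner files deposited by the authors hold spot intensities from Agilent Feature Extraction, 10.1.1.1 by the file headers and 9.5 by the submitters' processing notes. Per the file headers, background had been subtracted from these intensities. The authors' deposited value table is on a log2 scale, and no label names how it was normalized. It served as an alternative.

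From the intensity, log2 minus the array's 75th percentile over non-control probes was taken. Probes had to be well above background on 3 or more arrays. The number of arrays limits precision. Python 3.11.15 chose the members, and limma 3.58.1 in R 4.3.3 (lmFit, eBayes, two-sided, 9 residual degrees of freedom, Benjamini-Hochberg) tested the 13 livers not ranked, with outlier spots set to missing. A limma fit was also run on simulated data. The change planted there was larger than those of the members named here, so it does not show how well such changes are found. Named probes are the 5 first by rank, those at the cutoff, the 3 brightest in controls, the 3 highest in another liver, and per comparison the lowest p in each direction. The cell type markers and gene lists matched no probe and gave no result. Alternatives were other normalizations, backgrounds and filters, slide or replicate number as a block, all 15 arrays, and leaving out each liver. Scaling by 5 spike-in probes, fits within slides and outlier spots missing from the ranking were added after the data had been seen.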

Additional observations from a re-analysis of the deposited data

Results flagged for a closer look

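In groups of 4 livers, a liver was looked at again when its gap to the nearest other was large for the group's range by Dixon's test at the 95% level, which chance does in about 1 in 20 groups. Stormwater and streamwater were left out, because they hold the livers that chose the members. Of 18 wastewater groups, 2 met this. Wastewater 3 had UF_Ppr_AF_113422 at -3.19, against -5.77 to -5.37 in the other wastewater livers, which were not well above background. Wastewater 2 had UF_Ppr_AF_116905 at -1.64, against -2.20 to -2.13.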

How the results depend on the processing

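The same rule recovered 162 of the 200 members under quantile normalization and 146 from the authors' values, 126 with a normexp background, 125 with spike-in scaling and 90 when every array had to be above background, the number of members that meet that. Spike-in scaling moved the median of all probes by 0.74 in Stormwater 2 and -0.72 in Streamwater 4, with the members at 3.49 and 2.23. No member passed the adjusted threshold except in fits without 1 liver (0 to 1 for stormwater and wastewater, 0 to 0 for streamwater). Members at an unadjusted p under 0.05 are given out of 200, with the share of all probes tested in brackets except for fits without 1 liver. For stormwater these members numbered 2 with normexp (4.85%), 6 with all 15 arrays (6.65%) and 8 to 15 without 1 liver. For streamwater they numbered 4 with all 15 arrays (4.03%), 16 within slide 1 (4.70%), 65 within slide 2 (8.19%) and 7 to 33 without 1 liver (33 without Streamwater replicate 2). For wastewater they numbered 7 with normexp (3.25%), 3 with all 15 arrays (2.90%), 5 within slide 1 (3.08%), 37 within slide 2 (8.02%) and 11 to 27 without 1 liver. Within slides the control on slide 1 and the streamwater liver on slide 2 stand alone and are assumed to vary like other groups, so the slide 1 counts and the streamwater count within slide 2 rest on single livers. In the fits without 1 liver, 586 to 1039 of all 11640 probes were at an unadjusted p under 0.05 for stormwater. For streamwater this number was 267 to 702 (651 without Streamwater replicate 2), and for wastewater 343 to 605. Out of the 90 members above background on all 13 arrays the counts were 1 (8.31%), 3 (5.84%) and 4 (4.12%) for stormwater, streamwater and wastewater. With the replicate number as a block they were 16 (10.8%), 15 (5.28%) and 16 (5.58%) of 200; 11 of 16 same-numbered pairs of livers correlated above 0.1 (range -0.03 to 0.31), so the numbers were not taken to pair fish. The streamwater median turned to 0.071 with normexp, 0.085 with spike-in scaling, 0.51 with all 15 arrays, 0.78 within slide 1 and 0.29 without Streamwater replicate 3 (range without 1 liver -0.76 to 0.29), and the stormwater median to -0.092 without Control replicate 1 (range -0.092 to 0.41). UF_Ppr_AF_115038 turned to -0.14 for streamwater within slide 2 (adjusted p = 0.947 in limma) and UF_Ppr_AF_110291 to 0.012 with normexp (adjusted p = 0.992 in limma). The cause of these shifts was not tested, apart from fewer probes or livers where a setting has them. Of 378 values under alternatives, 345 were classed as unchanged, which is no measure of stability. Many of these could not move, since leaving out a liver of another water keeps a fold change as it is. A median also counted as unchanged if it kept its sign and moved by less than the spread between livers of a group. The wastewater median of -0.61 so counted as unchanged at -0.05 within slide 1, -0.10 with normexp and -1.03 within slide 2. Levels of members near background are not exact. A bound is given only where the other group was detected throughout, and it holds for the main processing only.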
